A study of Mus musculus with 12 samples.

Results

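The genes of neurotrophin signalling Ntrk2, Ntrk3, Bdnf, Ntf3 and Sort1 were followed across the cell classes of the P21 mouse cortex and in MYT1L Het against WT animals. The 5 genes were taken by symbol from the 55336 genes of the count matrices, and each symbol matched 1 gene. They were chosen by their place in the pathway with earlier results of these data in view, and which measured values entered that choice is not recorded. Neurotrophins are secreted growth factors that bind Trk receptor tyrosine kinases on neurons, and Trk signalling supports survival, dendrite growth and synaptic plasticity in the cortex. Ntrk2 encodes TrkB, the receptor for BDNF, which is made as a full-length kinase in neurons and as a truncated form that is abundant in astrocytes. Ntrk3 encodes TrkC, the receptor for neurotrophin-3, which is encoded by Ntf3. Sort1 encodes sortilin, which sorts BDNF within the cell and binds proneurotrophins together with the p75 receptor.

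Nuclei came from 12 mice of the MYT1L S710fsX line at postnatal day 21, with 3 WT males, 3 WT females, 3 Het males and 3 Het females. MYT1L is a zinc finger transcription factor of neurons, the S710fsX allele carries a frameshift, and Het animals carry it on 1 chromosome. Per the study's methods, P21 pups of the line of both genotypes had received a mixture of AAV9 vectors in the ventricles as newborns, among them one that encodes tdTomato. This reporter was counted in all 12 animals over all barcodes. It stood at 170 to 367 CPM (a gene's count scaled to a fixed total) in WT and 224 to 346 CPM in Het, and was left out of every other step. For levels by class or type, CPM are scaled to the total of that class or type in the animal. Each animal was 1 sample of frozen cortex, and the labels name no litter. Per the methods the P21 animals came from several litters, so animals share litters that could not be put in the fit. Unique molecular identifiers (UMIs) totalled 23429386 to 59958572 per WT animal and 36302019 to 56967218 per Het animal. The files held 78743 barcodes, of which 34862 passed the filters and 33118 remained after doublet removal, 14346 from WT and 18772 from Het. The lower limits on UMIs and genes and the mitochondrial limit kept 78722 barcodes. Most barcodes were thus lost to the upper limits on UMIs and genes or the complexity limit, and levels and fits leave them out. The share passing ran from 2116 of 6478 barcodes in Het male 1 to 4644 of 7301 in Het male 2. No barcode was shared by 2 animals. Myt1l transcript ranged from 834 to 952 CPM in WT and from 932 to 1017 CPM in Het over all nuclei, so its total level was no lower in Het. Its log2 fold change of Het over WT was 0.14 ± 0.05 (SE) in all nuclei, with an adjusted p of 0.647 by edgeR. In excitatory nuclei it was 0.14 ± 0.05 (0.423) and in inhibitory nuclei 0.23 ± 0.08 (0.448). Counts per gene cannot separate the frameshift allele from the other and do not check the genotypes.

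Clusters were named from fixed marker genes and are called "-like" for that reason. They gave 21319 excitatory, 8711 inhibitory and 2675 non-neuronal nuclei, and 413 nuclei of neuronal clusters led by glial markers were set aside. Within these classes 20 cell types could be named, and 9936 excitatory, 3248 inhibitory and 452 non-neuronal nuclei stayed unnamed. The labels give the tissue as cortex, yet 741 D1 striatal-like, 630 D2 striatal-like, 844 dentate gyrus (DG)-like and 818 CA1-like nuclei were also present. The class-wide excitatory and inhibitory sums include these nuclei, and where in the tissue they lay was not tested here. The study reports a higher proportion of striatal inhibitory neurons positive for DARPP32 in Het, also at P21. By staining of P21 sections it found more cells positive for both DARPP32 and NeuN in the deep cortex of Het. IT, CT and NP stand for intratelencephalic, corticothalamic and near-projecting neurons, OPC for oligodendrocyte precursor cells and VLMC for vascular leptomeningeal cells.

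Sequence upstream of the start was taken for the receptor on which the genotype result turns, Ntrk2 (mm10 chr13:58806569-59133970, plus strand), and for its ligand gene Bdnf (mm10 chr2:109674700-109727007, plus strand). MYT1 family zinc fingers bind a short core, AAGTT, and both strands of the 250 bases before each RefSeq start of build GRCm38.p6 were searched for it. On the printed strand a match on the opposite strand reads AACTT. These letters were present in 35.3% of all 32851 promoters. The table held promoters for 3 of the 5 genes, 1 for Ntrk2, 7 for Bdnf and 2 for Ntf3, and the letters were found in 0, 3 and 0 of them. The Ntrk2 window and the first Bdnf window are shown, 5′ to 3′, with the searched letters in capitals.
Ntrk2, chr13:58806319-58806568, plus strand: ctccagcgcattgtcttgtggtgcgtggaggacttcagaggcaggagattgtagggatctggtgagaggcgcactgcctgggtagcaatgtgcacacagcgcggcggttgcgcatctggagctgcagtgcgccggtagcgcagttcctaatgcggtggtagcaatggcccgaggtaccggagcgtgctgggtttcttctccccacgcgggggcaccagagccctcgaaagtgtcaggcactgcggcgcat
Bdnf, chr2:109674450-109674699, plus strand: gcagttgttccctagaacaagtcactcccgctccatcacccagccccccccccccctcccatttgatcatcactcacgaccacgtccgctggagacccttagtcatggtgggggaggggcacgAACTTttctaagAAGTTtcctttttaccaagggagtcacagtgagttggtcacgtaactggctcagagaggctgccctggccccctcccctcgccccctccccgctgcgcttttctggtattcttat
The Ntrk2 window holds none of these letters, which is a statement on this window only. The Bdnf window holds 1 copy on each strand, and a match is a description of the sequence, not evidence of binding. The other genes lie at mm10 chr7:78175959-78738012 on the minus strand for Ntrk3, chr6:126101412-126166910 on the minus strand for Ntf3 and chr3:108284082-108361511 on the plus strand for Sort1. All 5 are protein coding.

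Ntrk2 was carried by the named neuronal types, Astrocyte-like and OPC-like nuclei, and was low in Microglia-like, Oligodendrocyte-like and VLMC-like nuclei. Its level was highest in Astrocyte-like nuclei at 1743 ± 268 CPM (mean ± SD, n = 6 animals with at least 10 such nuclei, 4 of them Het and 2 WT). Lamp5-like interneurons had 1671 ± 238 CPM (n = 12, 6 per genotype). This order depends on the genotypes pooled, since in WT alone Lamp5-like nuclei had 1483 ± 147 CPM and Astrocyte-like nuclei 1452 ± 80.8 CPM, and in Het alone 1860 ± 134 and 1888 ± 181 CPM. Next were Vip-like interneurons at 1361 ± 239 CPM and L4/5 IT-like neurons at 1315 ± 359 CPM. Pvalb-like nuclei had 1092 ± 92.2 CPM, Sst-like 979 ± 126 CPM, L2/3 IT-like 973 ± 188 CPM and L6 CT-like 915 ± 140 CPM. Neurons of the hippocampus were lower, with 532 ± 137 CPM in CA1-like and 412 ± 79.3 CPM in DG-like nuclei. OPC-like nuclei had 434 ± 68.1 CPM, close to the DG-like level. The lowest levels were 80.7 ± 34.7 CPM in Microglia-like (n = 5), 76.5 ± 16.5 CPM in Oligodendrocyte-like (n = 12) and 28.5 ± 17.5 CPM in VLMC-like nuclei (n = 6). In the order of the 20 types, 16 of the 19 neighbouring pairs differed by less than the larger of their SDs. The pairs that differed by more were Lamp5-like over Vip-like, Neuroblast-like over Microglia-like and Oligodendrocyte-like over VLMC-like nuclei. These SDs run over animals of both genotypes and so include any genotype difference. Such comparisons of neighbours, here and for the other genes, describe spread and do not test ranks.

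With each nucleus thinned to 1500 UMIs, an Ntrk2 UMI was expected in 92.2% ± 3.94 of Astrocyte-like, 87.8% ± 3.93 of Lamp5-like, 81.3% ± 8.28 of L4/5 IT-like and 10.4% ± 2.32 of Oligodendrocyte-like nuclei (mean ± SD over animals). Without thinning these shares were 98.8%, 97.3%, 95.7% and 16.7%, at mean median depths of 2294, 3611, 3404 and 2429 UMIs. Most nuclei of the 3 high types thus held the transcript. Oligodendrocyte-like nuclei are the comparison for free RNA, and their share was well below those of the neurons.

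Ntrk3 had a different order. It was highest in DG-like neurons at 1735 ± 219 CPM (n = 12), VLMC-like nuclei at 1476 ± 298 CPM (n = 6) and L2/3 IT-like neurons at 1457 ± 81.9 CPM (n = 12). D1 striatal-like neurons had 1266 ± 113 CPM, CA1-like 1116 ± 100.4 CPM and Pvalb-like 993 ± 109 CPM. Sst-like neurons had 369 ± 71.2 CPM and Lamp5-like neurons 192 ± 58.4 CPM, so the neuronal type with the highest mean Ntrk2 had the lowest mean Ntrk3 of the named neuronal types. L4/5 IT-like neurons likewise paired a high Ntrk2 level with an Ntrk3 level of 463 ± 62.1 CPM. These ranks are of type means and do not hold for single clusters. With animals pooled, the L5 NP-like clusters of 602 and 235 nuclei had 42.0 and 46.3 CPM of Ntrk3, below the Lamp5-like level. The L5 NP-like clusters of 522 and 414 nuclei had 990 and 744 CPM. Unnamed excitatory clusters of 1265 and 1476 nuclei, with the L4/5 IT marker Rorb among their leading genes, had 527 and 954 CPM of Ntrk3. Oligodendrocyte-like nuclei were lowest at 16.4 ± 8.69 CPM. Of the 19 neighbouring pairs in the Ntrk3 order, 8 differed by more than the larger SD and 11 did not.

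**Figure D1:**
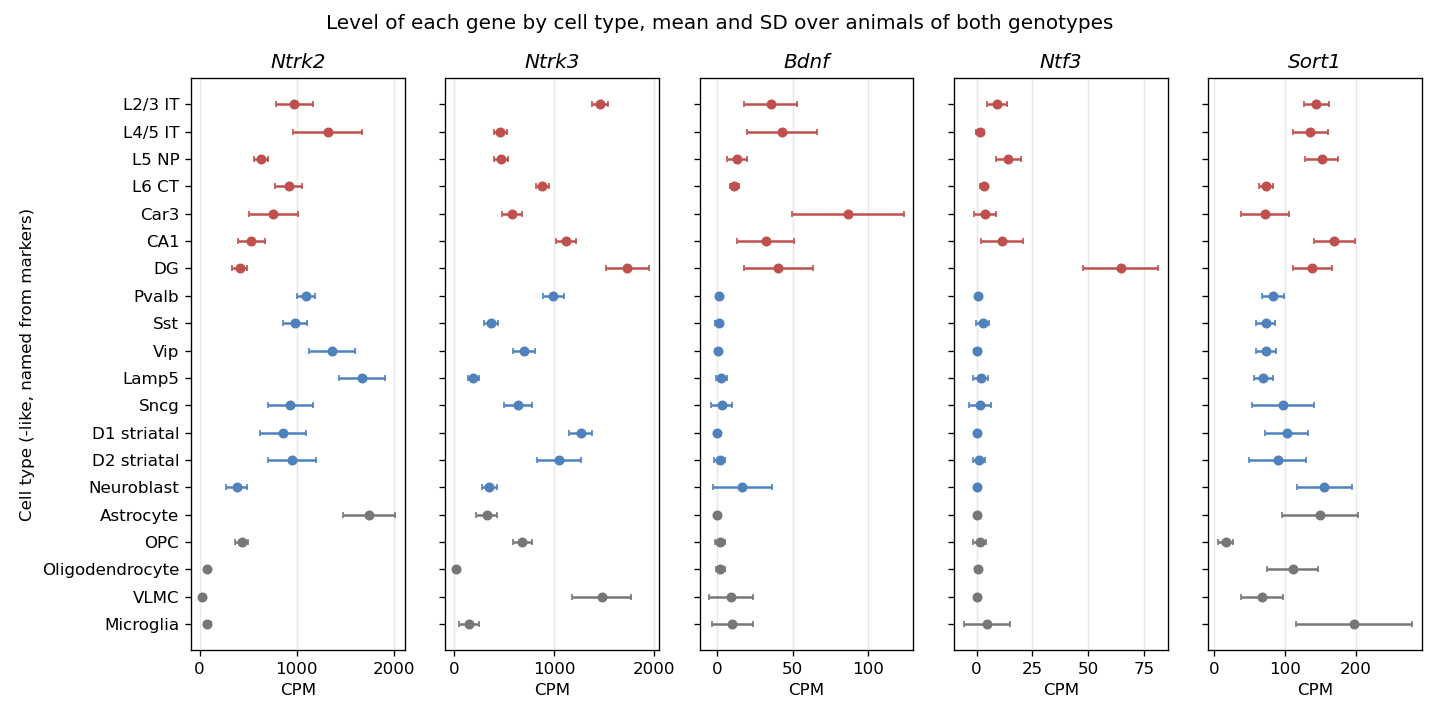
Each panel plots 1 gene, with CPM on the horizontal axis and the named cell types on the vertical axis; points are means over animals of both genotypes, bars are SDs, and red, blue and grey mark excitatory, inhibitory and non-neuronal types. Pooled means of Ntrk2 are highest in Astrocyte-like (4 Het and 2 WT animals) and Lamp5-like nuclei, those of Ntrk3 in DG-like and VLMC-like nuclei, of Bdnf in Car3-like and of Ntf3 in DG-like neurons.

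Both ligand genes were higher in excitatory than in inhibitory nuclei and were measured at far lower levels than the receptors. Bdnf stood at 34.2 ± 6.49 CPM in excitatory and 3.42 ± 3.15 CPM in inhibitory nuclei (n = 12). After thinning to 1500 UMIs, 4.51% ± 0.89 of excitatory and 0.48% ± 0.46 of inhibitory nuclei were expected to hold a Bdnf UMI, against 8.49% and 0.94% at full depth, with mean median depths of 3269 and 3233 UMIs. By type, Bdnf was highest in Car3-like neurons of the claustrum group at 86.6 ± 36.8 CPM, on 89 UMIs in all. L4/5 IT-like neurons had 42.8 ± 23.2 CPM, DG-like 40.5 ± 23.1 CPM, L2/3 IT-like 35.2 ± 17.6 CPM and CA1-like 32.2 ± 18.9 CPM. L5 NP-like and L6 CT-like neurons were lower, with 13.0 ± 6.66 and 11.2 ± 2.97 CPM. Other deep types sought by markers, such as L5 IT, L6 IT and L6b, could not be named, so deep neurons in general are not covered. Of the L5 NP-like clusters, the one with the lowest marker score had 21.9 CPM of Bdnf and the one with the highest score 4.04 CPM. In the Bdnf order only Car3-like against L4/5 IT-like neurons differed by more than the larger SD, of 19 neighbouring pairs. No Bdnf UMI was found in Astrocyte-like nuclei, and Pvalb-like, Sst-like and Vip-like interneurons had means between 0.72 and 1.21 CPM.

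Among all clusters, Bdnf was highest in 2 unnamed excitatory clusters. The first held 232 nuclei, was led by Ier5, Irf2bpl and Jun, and had 185 CPM on 144.5 UMIs. The second held 447 nuclei, was led by Trp53inp1, Aen and Sesn2, and had 98.4 CPM on 135 UMIs. Jun and Ier5 are immediate early genes, and Trp53inp1, Aen and Sesn2 are known targets of p53. Another unnamed excitatory cluster, of 1541 nuclei, had 74.3 CPM on 395.3 UMIs, the most Bdnf UMIs of any cluster. These levels pool the animals and carry no test.

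Ntf3 was highest in DG-like neurons, the granule neurons of the dentate gyrus. DG-like nuclei had 64.6 ± 16.7 CPM, with a lowest animal at 35.4 and a highest at 88.7 CPM (n = 12). The next type, L5 NP-like, had 14.3 ± 5.66 CPM, a gap larger than the larger SD and the only such gap in the Ntf3 order. Within the L5 NP-like nuclei the transcript was uneven. A pair of clusters of 522 and 414 nuclei, with the lowest L5 NP marker scores (1.52 and 1.89), held 48 and 41 UMIs at 26.1 and 29.7 CPM. The clusters of 602 and 235 nuclei, with scores of 3.53 and 2.49, held 0.5 and 0 UMIs, so the second rank rests on the clusters nearest the naming threshold. CA1-like neurons had 11.4 ± 9.46 CPM and L2/3 IT-like neurons 9.27 ± 4.41 CPM, whereas L4/5 IT-like neurons had 1.57 ± 1.78 CPM on 8 UMIs. In thinned DG-like nuclei 8.42% ± 1.89 were expected to hold an Ntf3 UMI, against 0.04% ± 0.09 of Oligodendrocyte-like nuclei. At full depth these shares were 16.1% and 0.10%, at mean median depths of 3205 and 2429 UMIs. Ntf3 and its receptor gene Ntrk3 had their highest means in the same cell type. For Ntrk3, DG-like nuclei (1735 CPM) exceeded VLMC-like nuclei (1476 CPM) by less than the larger SD, and whether these ranks differ was not tested.

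Sort1 was spread more evenly. Its highest mean was in Microglia-like nuclei, at 198 ± 82.1 CPM (n = 5, 3 Het and 2 WT) on 40 UMIs. In WT alone CA1-like neurons were higher, at 173 ± 25.3 against 165 ± 31.6 CPM. Means lay between 69.7 and 170 CPM in the named neuronal types, and at 125 ± 9.51 CPM in excitatory and 85.3 ± 11.8 CPM in inhibitory nuclei. CA1-like, L5 NP-like, L2/3 IT-like and L4/5 IT-like neurons had 170 ± 28.6, 152 ± 22.7, 144.0 ± 17.6 and 136 ± 25.2 CPM. Interneurons of the Sst-like, Vip-like and Lamp5-like types had 72.8 ± 13.1, 72.9 ± 14.2 and 69.7 ± 13.1 CPM. OPC-like nuclei were lowest at 16.4 ± 10.9 CPM, below VLMC-like nuclei at 67.3 ± 29.5 CPM by more than the larger SD.

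The genes most like each of the 5 over the 16 types with at least 3 usable WT animals were found among 12560 genes by Pearson's r of mean log2(CPM + 1). For Ntrk2 they were Bcl2 (r = 0.94), Mir124a-1hg (r = 0.94) and Scn1a (r = 0.94). For Ntrk3 they were Unc79 (r = 0.93), Csmd1 (r = 0.93) and Gria2 (r = 0.92), the last of which encodes an AMPA receptor subunit. For Bdnf they were Rtn4r (r = 0.96), which encodes the Nogo receptor, Smoc2 (r = 0.91) and AI115009 (r = 0.885). For Ntf3 they were Gm31816 (r = 0.93), Chst9 (r = 0.89) and Rnf182 (r = 0.86). For Sort1 they were Kdm4b (r = 0.92), Fem1b (r = 0.89) and Celsr2 (r = 0.88). The types share the animals and libraries, so these values describe levels over types and carry no p. Oligodendrocyte-like nuclei were among the 16 and lowest for both receptors, with WT means of 73.0 CPM for Ntrk2 and 11.6 CPM for Ntrk3. The next lowest WT means were 371 CPM of Ntrk2 in DG-like and 199 CPM of Ntrk3 in Lamp5-like nuclei. Pearson's r gives weight to so distant a type, and its part in these values was not tested. Astrocyte-like nuclei, with 2 usable WT animals, were not included.

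Het and WT animals were then compared on counts summed per animal and class. Ntrk2 was higher in Het excitatory nuclei, and the other 4 genes did not pass the call. A gene was called at an adjusted p under 0.05 (edgeR's quasi-likelihood test, Benjamini-Hochberg over all genes of the class) with an absolute log2 fold change over 0.2. In excitatory nuclei 25 of 14043 genes were called, 0.178% of them, and 1 of the 5 genes. Because the genes were chosen with earlier results of these data known, the p-values are the output of the whole-table fit and not independent support.

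Excitatory Ntrk2 ran from 659 CPM through a median of 729 to 860 CPM in the 6 WT animals. In the 6 Het animals it ran from 813 through a median of 950 to 987 CPM. The groups overlapped at the top WT and the bottom Het animal. The means were 736 ± 76.1 CPM in WT and 922 ± 68.8 CPM in Het, a log2 fold change of 0.31 ± 0.06 (SE), or 1.24-fold, with an adjusted p of 0.0383. The median log2 fold change over all excitatory genes was -0.0048, which the scaling of the libraries sets near 0, so fold changes are relative to the other genes of the class. In bulk sums of nuclei, more nuclei of a high type and more transcript per nucleus cannot be told apart. Each named type was also fitted on its own, and the same limit holds between the clusters of a type that merges more than 1. L4/5 IT-like nuclei were 1 cluster of 1525 nuclei. Mixtures within a cluster were not tested.

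The call was not robust to the choice of animals. It was lost without WT male 3 (adjusted p = 0.103), WT female 2 (0.0568), WT female 3 (0.133), Het male 2 (0.0547), Het male 3 (0.102), Het female 1 (0.108), Het female 2 (0.0713) or Het female 3 (0.0627), while the log2 fold change stayed between 0.28 and 0.35 over all 12 omissions. With sex in the model the adjusted p was 0.0554. In females alone the log2 fold change was 0.40 and in males alone 0.23, and the interaction of sex and genotype was -0.18 ± 0.12 (SE, males minus females, adjusted p = 0.867 by edgeR).

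Ntrk2 was also the higher gene in Het within single cell types. All 16 types that could be fitted had a positive log2 fold change, from 0.03 in OPC-like to 0.58 in L4/5 IT-like nuclei, and the types share the same 12 animals. The sign was not stable in 3 of them. It turned negative in OPC-like nuclei with no doublet removal (-0.021) and on leaving out WT male 3, WT female 3 or Het female 1 (-0.049 at the lowest), in Car3-like nuclei on leaving out WT male 3 or WT female 3 (-0.023 at the lowest), and in Sncg-like nuclei of females (-0.090). The call was passed in 2 of them. The share of all genes called was 0.982% in L6 CT-like, 0.262% in CA1-like, 0.0959% in DG-like, 0.0957% in L4/5 IT-like, 0.0784% in Vip-like, 0.0649% in Car3-like, 0.0469% in OPC-like and 0.015% in L2/3 IT-like nuclei, and 0% in the other 8. In 11 of the 16 the unadjusted p was under 0.05, and between 1.82% and 5.52% of the genes tested in a type were higher in Het at that level.

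In L4/5 IT-like neurons WT animals had 794 to 1344 CPM with a median of 1015. Het animals had 1188 to 1867 CPM with a median of 1576. Of the 6 WT animals 4 lay below every Het animal, and the other two overlapped the Het range. The log2 fold change was 0.58 ± 0.11 (SE, n = 6 per genotype), 1.49-fold, with an adjusted p of 0.0344 by edgeR, where 0.0957% of the 5223 genes tested were called. This is the type with the highest Ntrk2 level among the named excitatory types. With animals pooled, its cluster had 1351 CPM of Ntrk2. Unnamed excitatory clusters of 1265 and 1476 nuclei, also with Rorb among their leading genes, had 1055 and 947 CPM and were not fitted on their own. The L4/5 IT-like result covers the named cluster only.

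In L6 CT-like neurons WT animals had 701 to 970 CPM with a median of 817. Het animals had 909 to 1118 CPM with a median of 1032. The log2 fold change was 0.30 ± 0.08 (SE), with an adjusted p of 0.0372 by edgeR, where 0.982% of the 7842 genes tested were called. L2/3 IT-like neurons missed the threshold at an adjusted p of 0.0677 by edgeR, with 835 ± 124 CPM in WT, 1111 ± 131 CPM in Het and a log2 fold change of 0.39 ± 0.09 (SE, n = 6 per genotype). The L2/3 IT-like difference passed the call with DESeq2 (adjusted p = 0.0128). By edgeR it passed with no filter on low counts (adjusted p = 0.0013) and with no upper limits on nuclei (0.0385). The latter setting also dropped the complexity limit and doublet removal. The difference also passed without WT male 2 (adjusted p = 0.0039 by edgeR), WT female 1 (0.0452) or Het male 1 (0.0366). The L4/5 IT-like call was lost without WT male 3, any of the 3 WT females, Het male 2, Het male 3, Het female 1 or Het female 3, and the adjusted p over the 12 omissions ran from 0.0015 to 0.117. The L6 CT-like call was lost without WT male 3, WT female 2, WT female 3, Het male 2, Het male 3, Het female 1 or Het female 2, with 0.0150 to 0.144 over the omissions. With same-numbered animals of a sex as a block, the L4/5 IT-like call was lost (adjusted p = 0.0679 by edgeR) and the L6 CT-like call held (0.0424). In males alone both were lost (0.671 and 0.669). In females alone the L4/5 IT-like call held (0.0133) and the L6 CT-like call was lost (0.141). Both L6 CT-like and L2/3 IT-like neurons merged 2 clusters of unequal Ntrk2, and a split by cluster, made after the results were seen, is given as a description. The L6 CT-like clusters had 934 ± 166 CPM in WT and 1268 ± 158 CPM in Het, and 664 ± 99.1 and 777 ± 51.7 CPM (n = 6 per genotype). The higher of them held 53.2% ± 10.05 of the type's nuclei in WT and 50.1% ± 7.49 in Het. The L2/3 IT-like clusters had 967 ± 132 and 1307 ± 170 CPM, and 635 ± 119 and 827 ± 115 CPM, and the higher held 62.4% ± 6.19 and 60.8% ± 6.78 of nuclei. Het means were above WT means within each of the 4 clusters. The shares of WT and Het differed by less than their SDs, and the part of the cluster mix in the Ntrk2 difference was not tested. CA1-like neurons had 463 ± 131 CPM in WT and 601 ± 113 CPM in Het, at an adjusted p of 0.322 by edgeR.

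**Figure D2:**
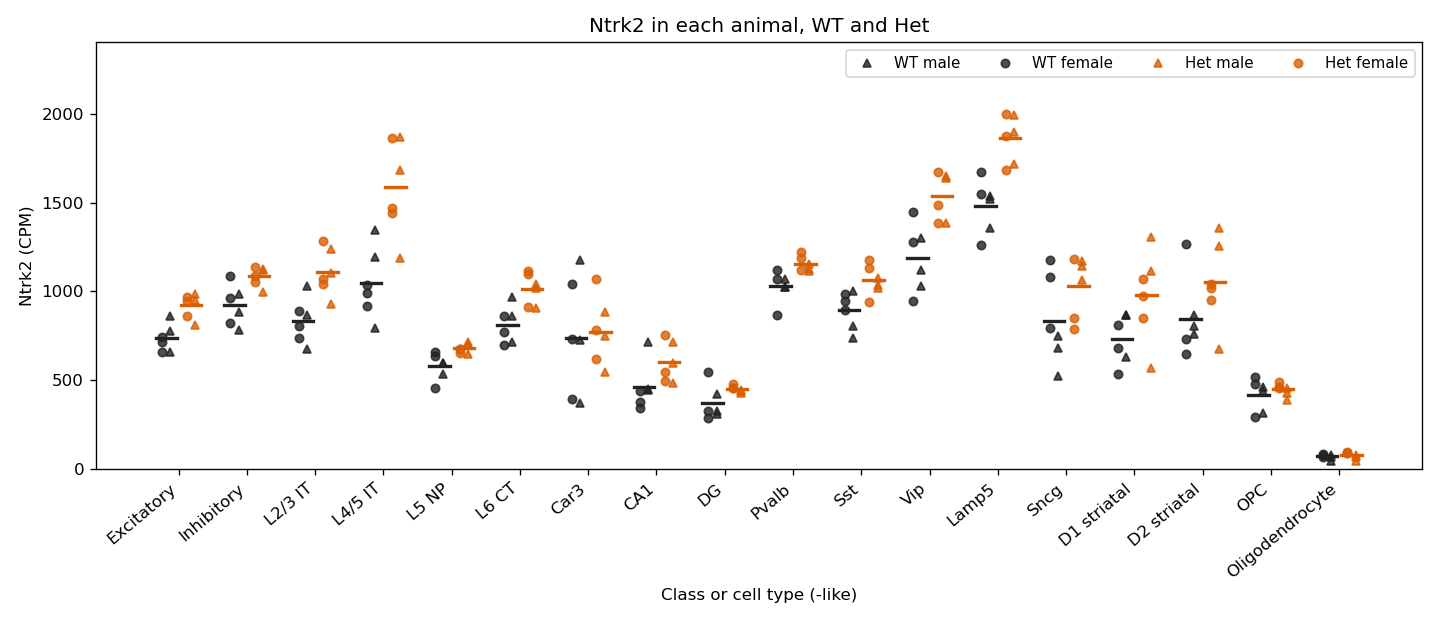
The vertical axis shows Ntrk2 in CPM for every animal, in the excitatory and inhibitory classes and each fitted cell type; black is WT, orange is Het, triangles are males, circles are females and lines are group means. Het means lie above WT means in every column, with the widest gap in L4/5 IT-like neurons at 1046 against 1585 CPM.

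Inhibitory nuclei showed the same direction without passing the call. WT animals had 785 to 1085 CPM with a median of 926, and Het animals 997 to 1139 CPM with a median of 1104. The log2 fold change was 0.23 ± 0.08 (SE, n = 6 per genotype) at an adjusted p of 0.448 by edgeR, where 32 of 11465 genes (0.279%) were called. Lamp5-like interneurons had 1261 to 1670 CPM in WT and 1685 to 1998 CPM in Het, at an adjusted p of 0.247 by edgeR, where 0% of the genes tested were called. Of the 16 types fitted, this was the 1 in which the Ntrk2 groups did not overlap. The share of all genes with such groups was not computed. Vip-like interneurons had 1187 ± 188 CPM in WT and 1535 ± 134 CPM in Het, at an adjusted p of 0.378 by edgeR. Pvalb-like interneurons had the smallest difference of the cortical interneurons, 1030 ± 87.3 against 1155 ± 42.3 CPM. Whether the genotype difference was larger in excitatory than in inhibitory nuclei was tested on each animal's log2 ratio of the classes, which differed between Het and WT by 0.08 (exact permutation test over 924 splits, two-sided, p = 0.491, adjusted over 3 genes 0.944).

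Astrocytes could not be fitted, since only 2 WT animals had at least 10 Astrocyte-like nuclei. Those had 1395 and 1509 CPM of Ntrk2, against 1701 to 2075 CPM in 4 Het animals, on 428 UMIs in all. The 8 astrocyte markers summed to 195 ± 42.5 CPM in WT and 149 ± 18.3 CPM in Het excitatory nuclei, and their part in the Ntrk2 difference was not tested. Their ranges were 124 to 237 and 120 to 167 CPM, and no more than 2 of the 8 were at 0 in an animal. In L4/5 IT-like neurons the same sum was 79.3 ± 21.6 CPM in WT and 66.9 ± 20.5 CPM in Het. It varied between neuronal types, from 389 ± 89.2 CPM in WT L2/3 IT-like to 54.7 ± 8.45 CPM in WT L6 CT-like nuclei. Bmpr1b of this list was a leading gene of an excitatory cluster of 1541 nuclei, so the sum does not measure astrocyte RNA alone. In Lamp5-like nuclei it was 62.6 ± 20.6 CPM in WT and 87.4 ± 31.6 CPM in Het, the same sign as Ntrk2, with ranges of 29.4 to 87.6 and 52.1 to 123 CPM and up to 6 of the 8 markers at 0, and its part in the Lamp5-like difference was not tested. Ntrk2 itself in Oligodendrocyte-like nuclei was 73.0 ± 15.3 CPM in WT and 80.0 ± 18.3 CPM in Het, and in OPC-like nuclei 419 ± 92.1 and 449 ± 34.3 CPM.

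Ntrk3, the sister receptor, showed no such difference. Excitatory nuclei had 789 to 940 CPM in WT and 833 to 912 CPM in Het, a log2 fold change of 0.01 ± 0.05 (SE, n = 6 per genotype, adjusted p = 0.989 by edgeR). Inhibitory nuclei had 696 ± 68.4 and 708 ± 32.9 CPM. Over the 15 types in which it was tested, 7 had a higher and 8 a lower estimate in Het, from -0.17 to 0.10. Sort1 had 120 ± 9.77 CPM in WT and 129 ± 7.90 CPM in Het excitatory nuclei, with a log2 fold change of 0.07 ± 0.06 (SE, adjusted p = 0.844 by edgeR). Of 13 types tested for Sort1, 9 were higher and 4 lower in Het and none was called. The widest Sort1 estimate was in Oligodendrocyte-like nuclei, at 91.7 ± 40.1 CPM in WT and 130 ± 19.8 CPM in Het (adjusted p = 0.999 by edgeR).

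**Figure D3:**
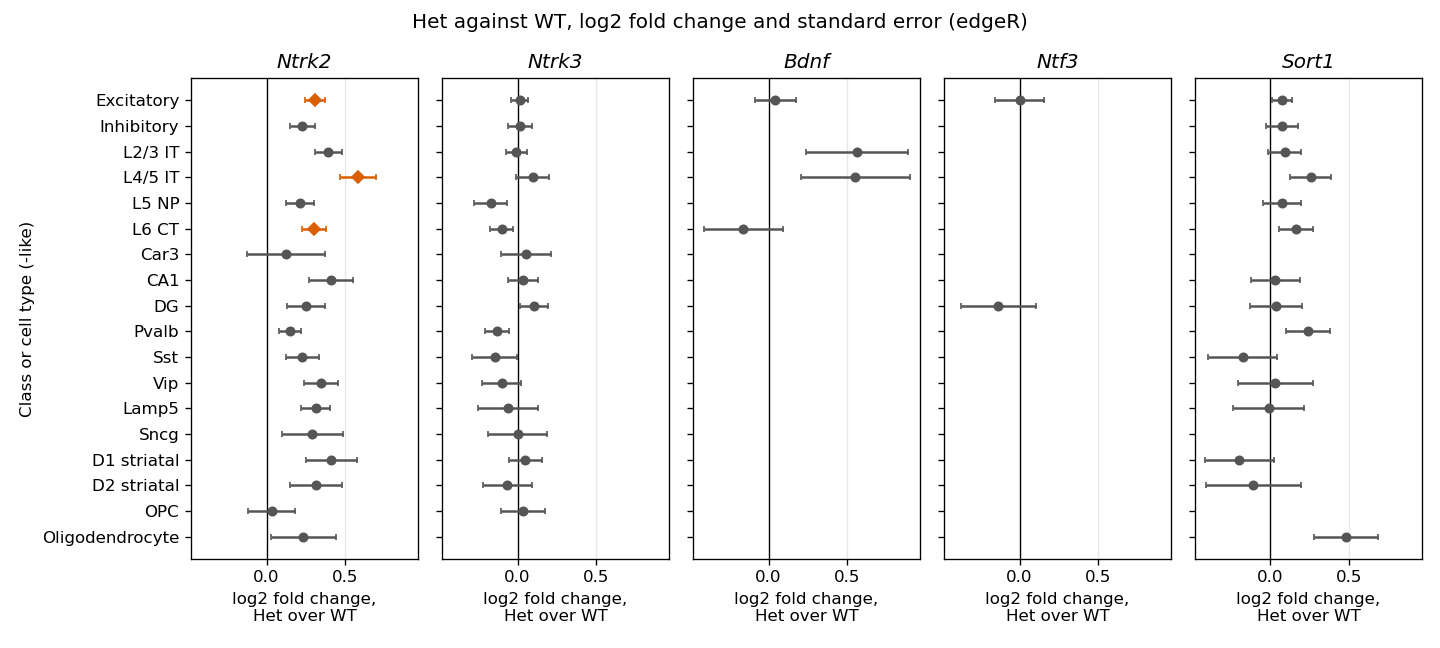
Each panel gives 1 gene, with the log2 fold change of Het over WT on the horizontal axis and the class or cell type on the vertical axis; points are edgeR estimates, bars are standard errors, and orange diamonds passed the call. Diamonds appear for Ntrk2 only, in excitatory nuclei and in L4/5 IT-like and L6 CT-like neurons, and empty rows are types where the gene was too low to be tested.

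The ligands were measured on few UMIs. Bdnf had 33.3 ± 7.90 CPM in WT and 35.1 ± 5.35 CPM in Het excitatory nuclei, with a log2 fold change of 0.04 ± 0.13 (SE, adjusted p = 0.978 by edgeR). It could be tested in 3 types. L2/3 IT-like neurons had 14.8 to 49.8 CPM in WT and 15.5 to 60.7 CPM in Het, L4/5 IT-like neurons 16.5 to 70.1 and 15.1 to 77.6 CPM, and L6 CT-like neurons 5.98 to 15.4 and 8.62 to 13.4 CPM. None was called, and the ranges overlapped in all. Their log2 fold changes were 0.56 ± 0.32, 0.55 ± 0.35 and -0.16 ± 0.25 (SE).

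Ntf3 in excitatory nuclei had 8.90 ± 1.24 CPM in WT and 9.20 ± 2.10 CPM in Het, with a log2 fold change of 0.00 ± 0.16 (SE). In DG-like neurons, where it was highest, WT animals had 35.4 to 88.4 CPM and Het animals 44.9 to 88.7 CPM, with a log2 fold change of -0.13 ± 0.24 (SE, adjusted p = 0.964 by edgeR). The groups overlapped over nearly their whole range.

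**Figure D4:**
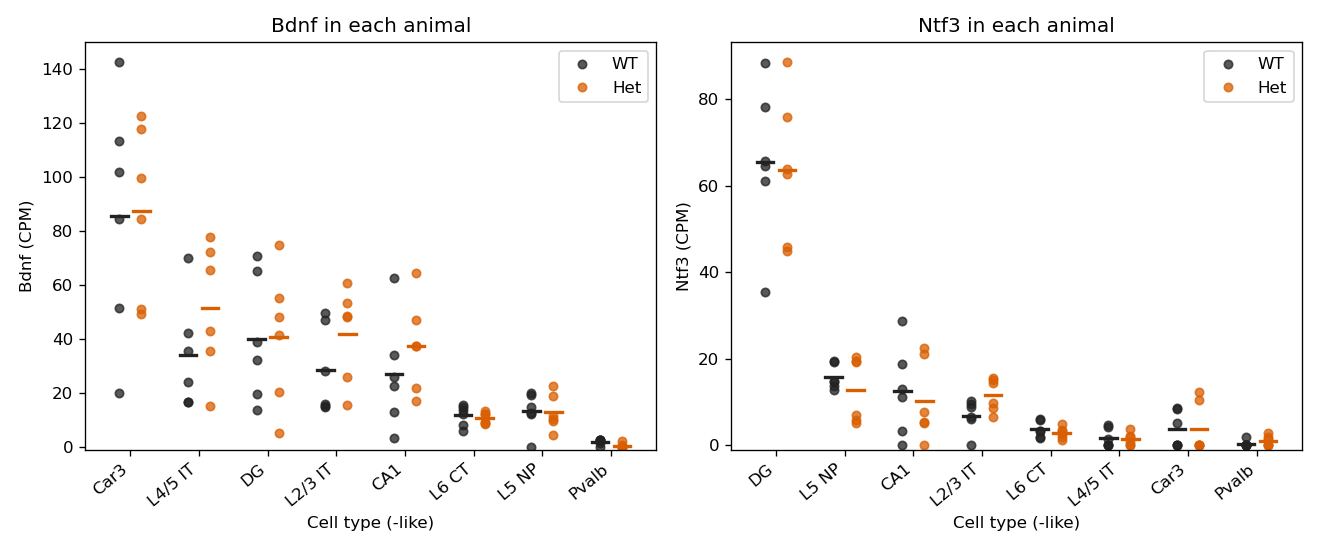
The vertical axes show Bdnf (left) and Ntf3 (right) in CPM for every animal in 8 cell types; black points are WT, orange points are Het and lines are group means. Bdnf spreads from 20.1 to 143 CPM between animals in Car3-like neurons, and Ntf3 stands above all other types in DG-like neurons in both genotypes.

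The other ligands and receptors of the pathway were read from a list of 9 genes, of which 5 could be tested in excitatory nuclei and none was called there or in inhibitory nuclei. Ngfr, which encodes the p75 receptor, had 18 UMIs over all excitatory nuclei, and Ntf5, another TrkB ligand, had 10. Nradd, a p75 homologue, had 73. The sortilin family receptors were abundant. Sorcs1 had 419 ± 28.1 CPM in WT and 381 ± 38.9 CPM in Het excitatory nuclei (unadjusted p = 0.0248, adjusted 0.520, edgeR), and neither it nor Sorl1 was called. Sorcs3 had 425 ± 59.8 and 417 ± 47.3 CPM, Sorl1 ranged from 201 to 236 CPM in WT and from 232 to 254 CPM in Het (unadjusted p = 0.0400, adjusted 0.593, edgeR), and Sorcs2 from 98.4 to 118 and from 107 to 129 CPM. In inhibitory nuclei Sorcs2 had 73.5 to 102 CPM in WT and 112 to 128 CPM in Het. Its log2 fold change was 0.33 ± 0.08 (SE) at an adjusted p of 0.101 by edgeR, and it was not called.

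None of the 73 tested of the 81 genes in 5 lists was called in excitatory nuclei (edgeR, 7 at an unadjusted p under 0.05, 5 of them higher in Het, and 0 called by DESeq2), against 7.88% of all genes at that unadjusted level. The Trk adaptors and effectors had 38 tested, with 0 at an unadjusted p under 0.05 and a median log2 fold change of -0.0091. The p75 partners had 7 tested and 1 at that level, the processing and release genes 8 and 0, and the activity and Trk response genes 15 and 4. The 4, chosen after their values were seen, were Mef2d (0.20), Etv5 (0.25), Egr1 (0.26) and Mef2c (-0.21), with log2 fold changes of Het over WT in brackets and adjusted p-values from 0.353 to 0.596 by edgeR. In inhibitory nuclei 62 genes were tested, none was called, and 2 had an unadjusted p under 0.05, against 6.97% of all genes.

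Lingo1, which encodes a p75 co-receptor in the Nogo receptor complex, was singled out after its values were seen, as the 1 list gene of 53 tested that was called in L6 CT-like neurons, where 0.982% of all genes tested were called. It had 72.0 to 83.9 CPM in WT and 88.6 to 116 CPM in Het. The means were 76.9 ± 4.23 and 108 ± 9.91 CPM, with a log2 fold change of 0.47 ± 0.10 (SE) at an adjusted p of 0.0083 by edgeR. It was called with each of the 12 animals left out in turn, at adjusted p-values from 0.0068 to 0.0357. In all excitatory nuclei it had 141 ± 11.3 and 165 ± 15.5 CPM, at an adjusted p of 0.370 by edgeR.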

How the data were processed

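Single-nucleus RNA-seq of P21 cortex was measured in 12 mice. Per the labels and the study's methods, the authors built libraries with the Scale Biosciences kit and mapped and counted them with the ScaleRna pipeline on mm10, and their processing notes name Seurat 4.3.0 and DESeq2 1.38.3. The aligner is not given in the sources used here. The deposited matrices hold estimated counts of UMIs per gene and nucleus, with no normalization, and 92.6% of their values are whole numbers, so sums were rounded. The study states more P21 nuclei than the barcodes held here.

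Filters followed the study's methods. A nucleus needed 800 to 6000 UMIs and 300 to 3000 genes, no more than 1% of UMIs from mitochondrial genes, and a complexity (log genes over log UMIs) of 0.9 or more. The 5% with the highest doublet score per animal were removed. Nuclei were clustered on 3000 variable genes without the genes studied (50 components, 20 neighbours, Leiden, leidenalg 0.10.2). Cluster names came from markers, with thresholds adjusted once clusters were seen and before genotypes were compared. A difference from the study's types may come from rebuilt names. An animal entered a type with 10 nuclei or more, and a type was fitted with 3 such animals per genotype. CPM were computed here from the sums, and SDs run over animals.

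Counts per animal were tested with edgeR 4.0.16 in R 4.3.3 (quasi-likelihood, TMM, filterByExpr, genotype only) over all genes of a class. On simulated counts with 200 changed genes, 65.7% of those at a log2 fold change of 0.5 and 31.3% at 0.3 were recovered in excitatory nuclei, with 6 false calls among 14048 genes, and 35.8% and 11.9% in inhibitory nuclei with 4 false calls among 11489. The changed genes were drawn only from genes above a minimum mean count, with variability set by the trend over all genes. The recovery rates therefore do not cover genes of low count or the variability of single genes. The members and lists were chosen with earlier results of these data known. Named by rule were the 5 genes, list genes called in excitatory or inhibitory nuclei (none was), the other ligands and receptors, and the 3 genes most like each of the 5. Some genes of the lists are not reported here by name. The labels give each animal as its own replicate.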

Additional observations from a re-analysis of the deposited data

Results flagged for a closer look

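An animal far from the others of its genotype was sought in 112 groups of 4 to 6 animals, and 7 were found, where chance gives about 1 in 20 groups. Ntrk2 in CA1-like neurons was 716 CPM in WT male 2, with the next WT animal at 451 CPM. Ntrk2 in D2 striatal-like neurons was 1267 CPM in WT female 1, with the next at 869 CPM. Ntrk3 in CA1-like neurons was 1352 CPM in Het male 2, with the next at 1148 CPM. Sort1 was 188 CPM in Het male 2 in DG-like neurons, 92.7 CPM in Het female 1 in Oligodendrocyte-like nuclei, 52.6 CPM in WT male 2 in Pvalb-like neurons and 99.1 CPM in WT female 1 in Vip-like neurons, each the extreme of its group. The first of these moves with a call, since without WT male 2 Ntrk2 in CA1-like neurons passed the threshold (log2 fold change 0.55, adjusted p = 0.0283 by edgeR), against 0.41 and 0.322 with all animals. The CA1-like value was 0.23 with no upper limits on nuclei (adjusted p = 0.950), 0.20 in males and 0.67 in females, none of them called. Without WT female 1, Ntrk2 in D2 striatal-like neurons was not called either (adjusted p = 0.948 by edgeR). The part of the other 5 in any result was not tested. No interaction of sex and genotype passed an adjusted p of 0.05 in the 61 tests run (edgeR), and 4 had an unadjusted p under 0.05.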

How the results depend on the processing

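Ntrk2 kept its sign in excitatory and inhibitory nuclei under every alternative run. Its excitatory call was lost with sex added (0.31), with the replicate block (0.31) and in males only (0.23, log2 fold changes of Het over WT), and held with DESeq2, other size factors, no filter on low counts, no upper limits on nuclei, no doublet removal and females only. Leaving out 1 animal gave 0.28 to 0.35. The setting called no upper limits on nuclei also dropped the complexity limit and doublet removal, so its results cannot be laid to the upper limits alone. Nuclei added in it were labelled by their nearest neighbours. Genes called in excitatory nuclei were 25, and became 79 with DESeq2, 174 with no filter on low counts, 59 with no upper limits on nuclei, 12 with the replicate block and 4 in males only, and 5 to 51 with 1 animal left out. In inhibitory nuclei 32 became 70, 167, 1, 17 and 0 in the same settings and 2 in females only, and 18 to 63. Cell types with an Ntrk2 call were 2, and became 3 with DESeq2, 3 with no upper limits on nuclei, 4 with no filter on low counts, 1 with the replicate block, 0 in males only and 1 in females only, and 0 to 4 with 1 animal left out. List genes called in excitatory nuclei were 0 and became 1 with no filter (Etv5) and 1 with no upper limits on nuclei (Lingo1), and stayed at 0 with 1 animal left out.

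These log2 fold changes changed sign, none of them called. Ntrk3 in excitatory nuclei was -0.0045 with no upper limits on nuclei and -0.082 in males, and -0.012 to 0.047 with 1 animal left out. Bdnf in excitatory nuclei was -0.011 in females and -0.028 to 0.12 with 1 animal left out. Ntf3 in excitatory nuclei was -0.0084 with no upper limits on nuclei, -0.010 with sex added, -0.012 with the replicate block and -0.29 in males, and -0.065 to 0.10 with 1 animal left out. In inhibitory nuclei of males Ntrk3 was -0.033 and Sort1 -0.023, and with 1 animal left out they ran from -0.034 to 0.049 and from -0.014 to 0.13. Ntrk2 was -0.021 in OPC-like nuclei with no doublet removal (-0.049 to 0.11 with 1 animal left out), -0.090 in Sncg-like nuclei of females (0.29 in all animals and 0.75 in males, interaction adjusted p = 0.568 by edgeR) and -0.023 to 0.30 in Car3-like nuclei with 1 animal left out. Sorcs3 in excitatory nuclei was 0.14 in females and -0.10 to 0.0034 with 1 animal left out. The causes were not tested. The labels give no pairing, so the block was not taken as one. Deviations of same-numbered animals of a sex correlated from -0.38 to 0.218, and these few values cannot exclude a shared litter or handling. The fit of Astrocyte-like nuclei and its alternatives were not run, since only 2 WT animals had 10 or more nuclei. Of the levels by cell type under the other nucleus filters, 181 moved by less than 1 SD and 39 by more. Of the shares of nuclei with a UMI, 77 moved by more than 1 SD on thinning, which lowers depth by construction, and 33 by less.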
